A study of Homo sapiens with 6 samples.

Results

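The genes described here are 31 genes of cholesterol metabolism, taken by name from the 19491 genes in the expression tables of PC-3 cells. They hold 8 enzymes of the mevalonate pathway, 12 enzymes of squalene and sterol synthesis, 7 genes of the SREBP control circuit and 4 genes of sterol transport, uptake and efflux. All 31 were found, and all 31 passed the filter on low counts. PC-3 is an established human prostate cancer cell line. The cells were left untreated (control) or given GPNA or BenSer, both of which the study used to inhibit the glutamine transporter ASCT2, for 48 h. The legend of the study's RNA sequencing figure gives 1 mM for GPNA and 10 mM for BenSer, so the doses of the agents differ. All groups were grown in the same serum-containing medium, and total RNA was sequenced from stranded libraries.

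The labels name 6 libraries, 2 for each group, and each group has 2 columns numbered like the libraries, of counts scaled to a common library size (CPM, reads of a gene per 1e6 reads of the library) in the tables. The tables hold 4 such columns per group, and whether the second library of a group is column 2 or stands for several columns could not be settled from the labels. Library totals were 23077986 to 32178154 reads, of which 51.6% to 52.7% lay on listed genes. Within a group, both columns agreed nearly as closely as repeat draws of reads from a single library would (chi-square divided by its degrees of freedom 1.04 to 1.06, against 5.33 to 20.6 between groups). Each group is therefore counted as 1 sample, no test of a treatment is given, and the 95% intervals below (exact Clopper-Pearson, on merged reads) cover counting error only. The epithelial genes KRT8 (248 to 292 CPM), KRT18 (91.5 to 109 CPM) and EPCAM (91.2 to 100.2 CPM) were well covered in every column. VIM, the intermediate filament gene that PC-3 cells also express, was at 186 and 188 CPM in control, 187 and 180 CPM with GPNA, and 145 and 142 CPM with BenSer. Its log2 difference with BenSer was -0.38, and that of KRT18 was -0.24 with BenSer and -0.15 with GPNA. KRT8 was at 287 and 292 CPM in control, 255 and 248 CPM with GPNA, and 273 and 278 CPM with BenSer. The part of these marker differences in the results below was not tested. The fibroblast gene COL1A1 was at 6.07 and 5.07 CPM in control, 3.80 and 3.65 CPM with GPNA, and 3.85 and 5.07 CPM with BenSer. COL3A1 was at 0.589 to 1.31 CPM. The leukocyte gene PTPRC and the endothelial gene PECAM1 are not among the rows used here. In such bulk samples, fewer cells of a type and less RNA per cell cannot be told apart.

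Cells make cholesterol from acetyl-CoA through mevalonate, squalene and lanosterol. The transcription factors SREBP-1 and SREBP-2, encoded by SREBF1 and SREBF2, switch on the genes of this route. When membrane sterol is low, SCAP carries them from the endoplasmic reticulum to the Golgi, where the proteases encoded by MBTPS1 and MBTPS2 release the active part. When sterol is plentiful, the INSIG proteins hold SCAP back, and oxysterols activate the LXR receptors, whose known targets include the exporters ABCA1 and ABCG1 and the ubiquitin ligase MYLIP.

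The plainest pattern among the 31 genes was that most of the synthesis enzymes were lower with BenSer. The sterol exporters ABCA1 and ABCG1 were higher with BenSer, though neither passed the 1.5-fold limit given below. With GPNA most enzymes stayed close to control, and INSIG1, STARD4 and ABCG1 were among the genes that were higher. A gene was called when log2(mean CPM + 1) differed by at least 1.5-fold, with 1.2-fold as a second limit. This scale understates the change of genes with low values. With BenSer, 5 of the 31 genes were at least 1.5-fold lower than control, against 1.58% of the 18976 genes tested, and 0 were at least 1.5-fold higher, against 1.96%. At 1.2-fold, 17 were lower (15.0% of all genes tested) and 4 were higher (12.9%, near the 10.4% of all genes tested). With GPNA, 1 of the 31 was at least 1.5-fold higher (0.34% of 18828 genes tested) and 0 were lower (0.0637%). At 1.2-fold, 6 were higher (5.18%) and 0 were lower (5.86%). The median log2 difference from control over the 31 genes was -0.30 with BenSer and 0.059 with GPNA, where all genes tested had -0.028 in both comparisons. The comparisons share the control columns.

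**Figure D1:**
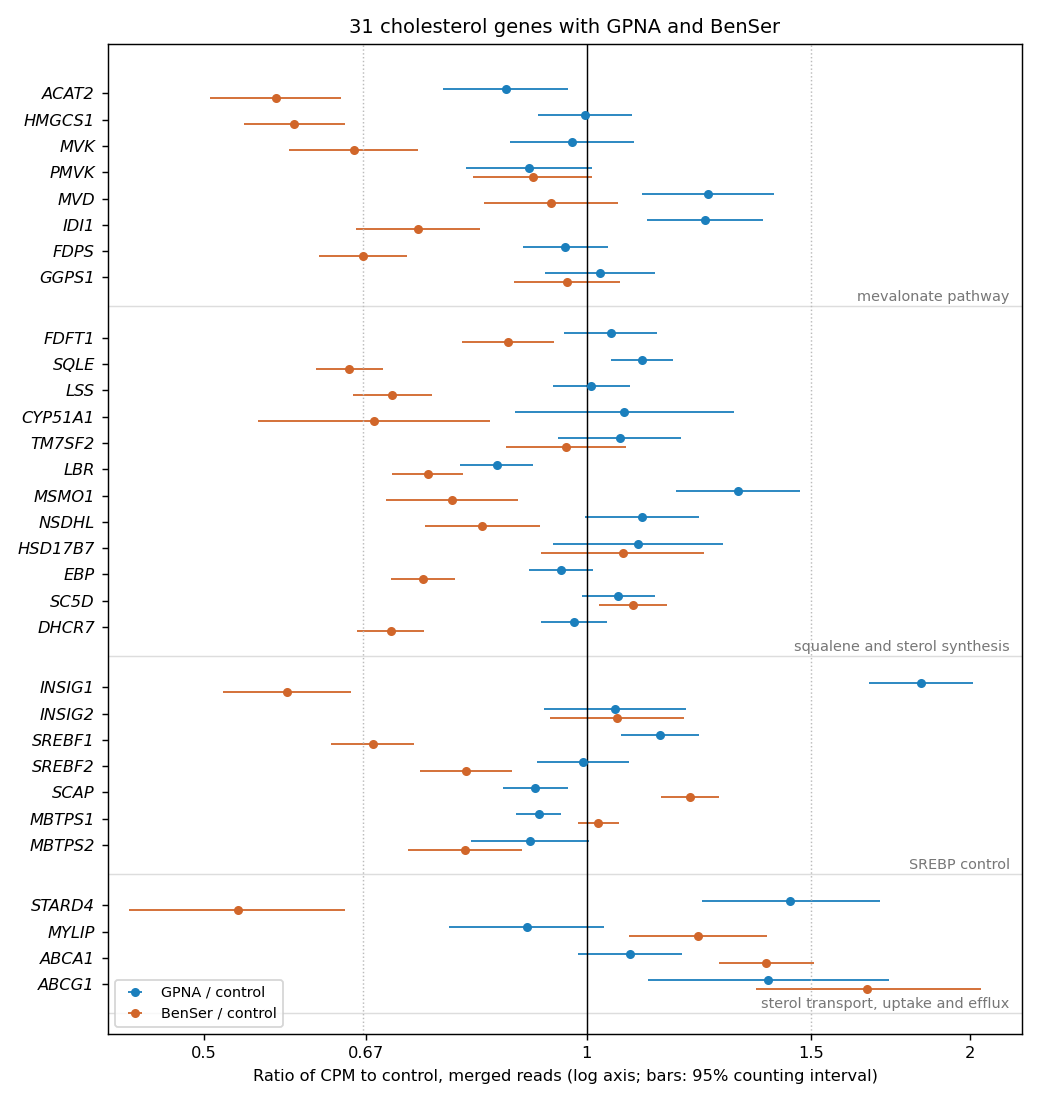
Ratio of CPM to control for the 31 cholesterol genes, on a log axis, with GPNA in blue and BenSer in orange; bars are 95% counting intervals on merged reads, and dotted lines mark 1.5-fold either way. Most BenSer points of the mevalonate and sterol synthesis genes lie left of 1, INSIG1 lies at 1.83 with GPNA and 0.581 with BenSer, and ABCA1 and ABCG1 lie right of 1 with both agents.

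INSIG1, the endoplasmic reticulum protein that retains SCAP when sterol is plentiful and is itself a known SREBP target, differed most between the agents. It is ENSG00000186480, on chromosome 7 from 155089486 to 155101945 on the plus strand of GRCh37. Its level was 14.4 and 14.2 CPM in the control columns, 25 and 27.3 CPM with GPNA, and 8.36 and 8.23 CPM with BenSer. The 3 groups did not overlap, with GPNA highest and BenSer lowest. The ratio to control was 1.83 (1.67 to 2.01) with GPNA and 0.581 (0.518 to 0.652) with BenSer, log2 differences of 0.83 and -0.72. INSIG1 ranked 21st highest of the 18828 genes tested with GPNA. INSIG2, the second retention protein, was at 8.87 and 10.6 CPM in control, 10.8 and 9.66 CPM with GPNA, and 11 and 9.49 CPM with BenSer. These columns overlapped in every comparison, and its ratio to control was 1.05 (0.926 to 1.2) with GPNA and 1.06 (0.935 to 1.19) with BenSer.

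The genes for the SREBP factors were both lower with BenSer. SREBF1 was at 30.4 and 30.5 CPM in control, 35.0 and 34.6 CPM with GPNA, and 20.4 and 21.0 CPM with BenSer. Its ratio to control was 1.14 (1.06 to 1.23) with GPNA and 0.679 (0.629 to 0.732) with BenSer, a log2 difference of -0.54 that lies under the 1.5-fold limit. SREBF1 shares exon sequence on the opposite strand with RAI1, whose log2 difference with BenSer was -0.08. SREBF2 was at 23.8 and 22.8 CPM in control, 22.5 and 23.8 CPM with GPNA, and 18.2 and 19.2 CPM with BenSer. For SREBF2 the GPNA columns overlapped control (ratio 0.993, 0.914 to 1.08), whereas the BenSer columns lay below it (ratio 0.803, 0.739 to 0.873).

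SCAP, the sterol-sensing escort of both factors, ran the other way with BenSer. It was at 49.3 and 47.7 CPM in control, 44.5 and 43.8 CPM with GPNA, and 57.9 and 59.0 CPM with BenSer. The ratio was 0.911 (0.859 to 0.966) with GPNA and 1.2 (1.14 to 1.27) with BenSer, just past the 1.2-fold limit. Of the activating proteases, MBTPS1 was within 1.2-fold of control with both agents, and MBTPS2 had a ratio of 0.802 (0.723 to 0.890) with BenSer. MBTPS2 shares exon sequence on the same strand with YY2, which was at 0.608 CPM with BenSer and 0.929 CPM in control.

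Promoters of all the genes with a promoter window were searched for 3 short motifs, and those of 4 genes are shown here. The 250 bases before the start of each gene are given 5′ to 3′ on the gene's own strand (RefSeq, GRCh38.p14). Capitals mark 3 motifs. They are a sterol regulatory element core (TCACNCCAC), a known site of the SREBP factors, a CCAAT box, the element of the SREBP partner NF-Y, and an E-box (CACGTG). Each was searched on either strand, so that a CCAAT box on the other strand reads ATTGG. Only this exact core was searched for, so a window without it may still hold another form of SREBP site. SREBF2 is shown as the 1 gene that holds the element core, and HMGCS1 as an enzyme without it. INSIG1 and STARD4 were chosen after their values were seen, as the genes with the greatest difference between the agents. The windows lie at chr22:41832855-41833104 on the plus strand (SREBF2), chr7:155297628-155297877 on the plus strand (INSIG1), chr5:111512536-111512785 on the minus strand (STARD4) and chr5:43313413-43313662 on the minus strand (HMGCS1).
SREBF2: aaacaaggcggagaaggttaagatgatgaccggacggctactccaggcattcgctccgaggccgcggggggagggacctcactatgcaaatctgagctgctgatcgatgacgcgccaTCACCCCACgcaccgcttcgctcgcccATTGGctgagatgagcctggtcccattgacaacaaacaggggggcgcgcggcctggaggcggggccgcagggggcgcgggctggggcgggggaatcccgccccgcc
INSIG1: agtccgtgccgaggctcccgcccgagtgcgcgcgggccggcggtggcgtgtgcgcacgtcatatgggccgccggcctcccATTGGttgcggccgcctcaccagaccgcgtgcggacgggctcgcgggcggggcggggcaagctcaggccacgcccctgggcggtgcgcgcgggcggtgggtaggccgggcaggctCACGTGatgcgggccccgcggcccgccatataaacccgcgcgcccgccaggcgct
STARD4: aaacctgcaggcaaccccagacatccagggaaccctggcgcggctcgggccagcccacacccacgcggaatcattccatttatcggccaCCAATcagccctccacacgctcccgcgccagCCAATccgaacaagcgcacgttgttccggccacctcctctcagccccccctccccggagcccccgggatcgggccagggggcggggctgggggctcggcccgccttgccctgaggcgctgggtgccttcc
HMGCS1: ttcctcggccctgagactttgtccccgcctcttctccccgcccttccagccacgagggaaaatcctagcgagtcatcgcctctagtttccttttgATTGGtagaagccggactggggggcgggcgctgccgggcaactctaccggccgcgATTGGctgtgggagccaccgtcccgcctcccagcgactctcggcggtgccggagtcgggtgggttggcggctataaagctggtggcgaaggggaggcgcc
In SREBF2 the element core begins 133 bases before the start and the CCAAT box on the other strand lies at 106 bases. INSIG1 holds an E-box at 55 bases and a CCAAT box at 170 bases. STARD4 holds CCAAT boxes at 161 and 130 bases, and HMGCS1 at 155 and 100 bases.

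Promoter windows were found for 27 of the 31 genes, with none for ACAT2, FDFT1, SQLE and ABCG1. The CCAAT box was present in 18 of the 27 (66.7%), against 37.0% of 27305 genes with a window of this length, and 11 of the 27 held at least 2, against 11.5%. MVK and NSDHL each held 5. The E-box was present in 4 of the 27 (14.8%, against 7.73%), namely SC5D, INSIG1, SCAP and ABCA1. The element core was present in 1 of the 27 (3.70%, against 1.09%). SREBF1, INSIG2, MBTPS1 and MBTPS2 held none of the 3 motifs in their windows. A gene with several windows counted once when any of them held the motif. Such matches describe the letters only.

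All 8 mevalonate pathway genes lay below control with BenSer, as did 10507 of all 18976 genes tested. The median log2 difference of the 8 was -0.48, and 5 of them were at least 1.2-fold lower (15.0% of all genes tested). With GPNA the median was -0.02, and 2 of the 8 were at least 1.2-fold higher (5.18% of all genes tested). ACAT2, the cytosolic thiolase that joins acetyl-CoA units at the start of the route, was at 13.5 and 13.9 CPM in control, 12.8 and 10.9 CPM with GPNA, and 8.42 and 7.17 CPM with BenSer. Its columns stood in the order control, GPNA, BenSer without overlap, and its ratio to control was 0.864 (0.771 to 0.967) with GPNA and 0.570 (0.506 to 0.641) with BenSer. ACAT2 (ENSG00000120437, chromosome 6, 160183077 to 160200144) shares exon sequence on the opposite strand with TCP1 and SOD2, whose log2 differences with BenSer were -0.37 and -0.06. The strand setting of the counting is not given in the sources used here.

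HMGCS1, the synthase that makes HMG-CoA, separated BenSer from both other groups. It lies on chromosome 5 from 43287572 to 43313614 (ENSG00000112972). It was at 23.5 and 21.7 CPM in control, 23.2 and 21.8 CPM with GPNA, and 12.7 and 13.9 CPM with BenSer. The GPNA columns lay within the control range (ratio 0.997, 0.916 to 1.08), and BenSer lay below both (ratio 0.589, 0.537 to 0.645). IDI1, the isopentenyl diphosphate isomerase, was at 14 and 12.8 CPM in control, 16.0 and 17.3 CPM with GPNA, and 9.98 and 9.80 CPM with BenSer. Here GPNA was above control (ratio 1.24, 1.11 to 1.37) and BenSer below it (ratio 0.736, 0.658 to 0.824).

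Of the other 5 mevalonate genes, MVD, which decarboxylates mevalonate diphosphate, had a ratio of 1.24 (1.1 to 1.4) with GPNA and 0.937 (0.830 to 1.06) with BenSer. The mevalonate kinase gene MVK (ratio 0.656 with BenSer) and the farnesyl diphosphate synthase gene FDPS (0.667) were over 1.2-fold lower with BenSer and near control with GPNA (0.973 and 0.962). MVK shares exon sequence with MMAB on the opposite strand, and MMAB had a log2 difference of -0.51 with BenSer. The kinase gene PMVK and the branch-point synthase gene GGPS1 stayed within 1.2-fold of control with both agents. GGPS1 shares exon sequence on the opposite strand with ARID4B, whose log2 difference with BenSer was 0.21. It also shares exon sequence with another annotated gene on the same strand.

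**Figure D2:**
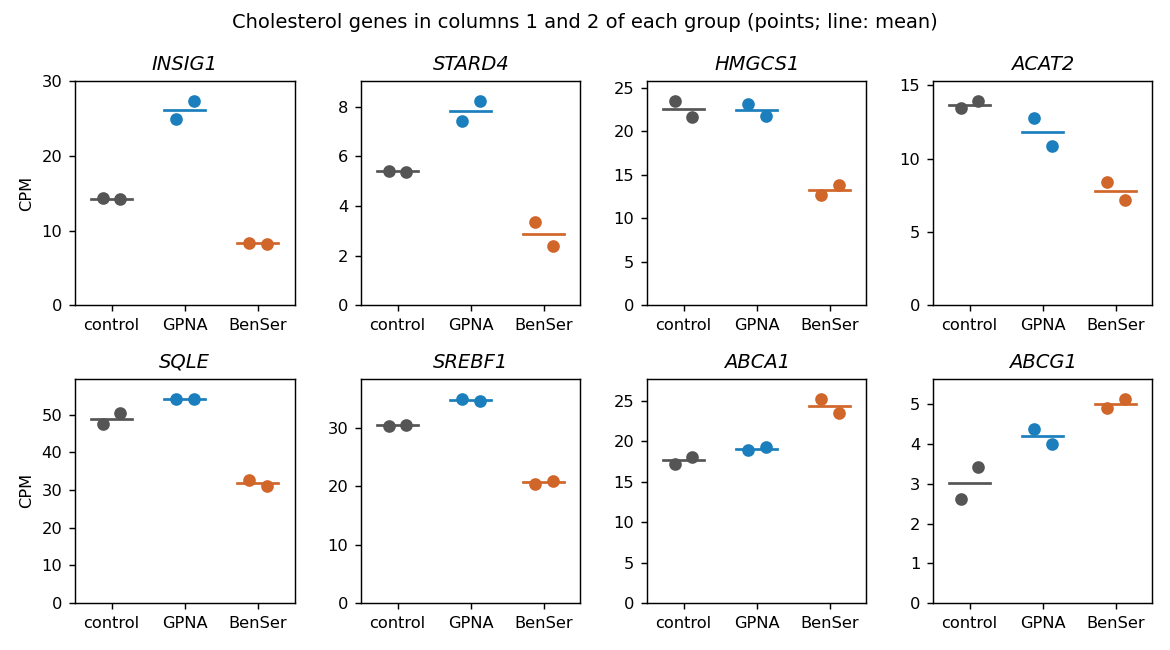
CPM of 8 cholesterol genes in columns 1 and 2 of each group, with control in grey, GPNA in blue and BenSer in orange; points are columns, lines are the mean of both, and each panel has its own axis from 0. BenSer is lowest for INSIG1, STARD4, HMGCS1, ACAT2, SQLE and SREBF1 and highest for ABCA1 and ABCG1, and GPNA is highest for INSIG1 at 25 and 27.3 CPM.

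Squalene and sterol synthesis genes followed a similar course. With BenSer 10 of the 12 lay below control, as did 10507 of all 18976 genes tested. Of the 12, 7 were at least 1.2-fold lower (15.0% of all genes tested), and the median log2 difference was -0.36. With GPNA the median was 0.08 and 1 of the 12 was at least 1.2-fold higher (5.18% of all genes tested). SQLE, the squalene epoxidase that opens the sterol part of the route, was at 47.5 and 50.4 CPM in control, 54.1 and 54.1 CPM with GPNA, and 32.6 and 31.1 CPM with BenSer. BenSer was the low group, and GPNA lay above control by less (ratio 1.1, 1.04 to 1.17). The SQLE ratio with BenSer was 0.651 (0.613 to 0.691), a log2 difference of -0.60 that became -0.56 under TMM scaling, DESeq2 size factors or without control column 2, and -0.57 without BenSer column 2, under the 1.5-fold limit.

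MSMO1, a methylsterol oxidase, was the sterol enzyme with the highest ratio under GPNA. It was at 11.4 and 11.6 CPM in control, 16.8 and 13.4 CPM with GPNA, and 9.04 and 8.95 CPM with BenSer. The GPNA columns lay apart from each other but both above control (ratio 1.31, 1.18 to 1.47), and the BenSer columns lay below it (ratio 0.783, 0.695 to 0.883). With BenSer the lanosterol synthase gene LSS (ratio 0.703), the demethylase gene CYP51A1 (0.680), LBR, a sterol reductase and lamin receptor (0.750), the sterol isomerase gene EBP (0.743) and the reductase gene DHCR7 (0.701) were also over 1.2-fold lower. With GPNA these 5 had ratios of 0.849 (LBR) to 1.07 (CYP51A1). CYP51A1 shares exon sequence on the opposite strand with AKAP9, which was at 109 CPM in control (log2 difference with BenSer 0.10). CYP51A1 and EBP also share exon sequence with other annotated genes on the same strand. FDFT1, TM7SF2, NSDHL, HSD17B7 and SC5D stayed within 1.2-fold of control on the log2 scale with both agents, and HSD17B7 and SC5D were the 2 genes of this group above control with BenSer (ratios 1.07 and 1.09). HSD17B7 has a near-identical pseudogene, HSD17B7P2, at 0.777 to 1.59 CPM, so its value is uncertain. TM7SF2 shares exon sequence on the same strand with VPS51, which was at 28.7 CPM in control (log2 difference with BenSer -0.17).

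With BenSer, STARD4 lay below control and the other 3 transport genes above it. With GPNA, MYLIP was the 1 of these genes below control. STARD4, which carries cholesterol between membranes and is a known SREBP-2 target, had the same order of groups as INSIG1. It lies on chromosome 5 from 110831731 to 110848288 (ENSG00000164211). It was at 5.42 and 5.37 CPM in control, 7.40 and 8.21 CPM with GPNA, and 3.36 and 2.38 CPM with BenSer. The groups did not overlap, and the ratio was 1.45 (1.23 to 1.70) with GPNA and 0.532 (0.437 to 0.646) with BenSer. It rests on 184 to 400 merged reads per group, and without BenSer column 2 its log2 difference with BenSer was -0.55 in place of -0.73, under the 1.5-fold limit.

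ABCA1 and ABCG1, which export cholesterol to lipoprotein particles, were highest with BenSer. ABCA1 was at 17.2 and 18.1 CPM in control, 18.9 and 19.3 CPM with GPNA, and 25.2 and 23.6 CPM with BenSer. Its ratio to control was 1.08 (0.984 to 1.19) with GPNA and 1.38 (1.27 to 1.51) with BenSer. ABCG1, the least expressed of the 31 genes per kilobase of exon in control (0.494 CPM per kilobase), was at 2.63 and 3.42 CPM in control, 4.38 and 4.01 CPM with GPNA, and 4.91 and 5.13 CPM with BenSer. Its ratio was 1.39 (1.12 to 1.73) with GPNA and 1.66 (1.36 to 2.04) with BenSer. These ratios rest on 140 to 322 merged reads per group, and the control columns differed by 26.3% of their mean. The log2 difference with BenSer, 0.58, lay just under the 1.5-fold limit. It passed the limit with a pseudocount of 0.5 (0.65), with TMM scaling (0.62) or without control column 2 (0.73). MYLIP, which marks lipoprotein receptors for degradation, was at 8.40 and 9.10 CPM in control, 7.33 and 8.37 CPM with GPNA, and 10.4 and 11 CPM with BenSer. Its ratio was 0.897 (0.779 to 1.03) with GPNA and 1.22 (1.08 to 1.39) with BenSer.

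Set directly against GPNA, BenSer had lower levels of most of these genes, though the doses differ (10 mM and 1 mM). At least 1.5-fold lower were 7 of the 31, against 0.813% of the 19056 genes tested, and 0 were higher, against 1.05%. At 1.2-fold, 17 were lower (11.0%) and 3 were higher (10.5%). The 7 were INSIG1, STARD4, SQLE, SREBF1, HMGCS1, IDI1 and MSMO1. INSIG1 had the lowest log2 difference of all 19056 genes, -1.55 (ratio 0.317, 0.286 to 0.351), and STARD4 the 6th lowest, -1.19 (ratio 0.368, 0.307 to 0.439). The log2 differences of the other 5 ran from -0.75 for SQLE to -0.69 for MSMO1, and that of MSMO1 was -0.53 without GPNA column 1. The 3 higher genes were MYLIP (0.40), SCAP (0.40) and ABCA1 (0.34). The median over the 31 genes was -0.35, against -0.0093 over all genes tested.

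**Figure D3:**
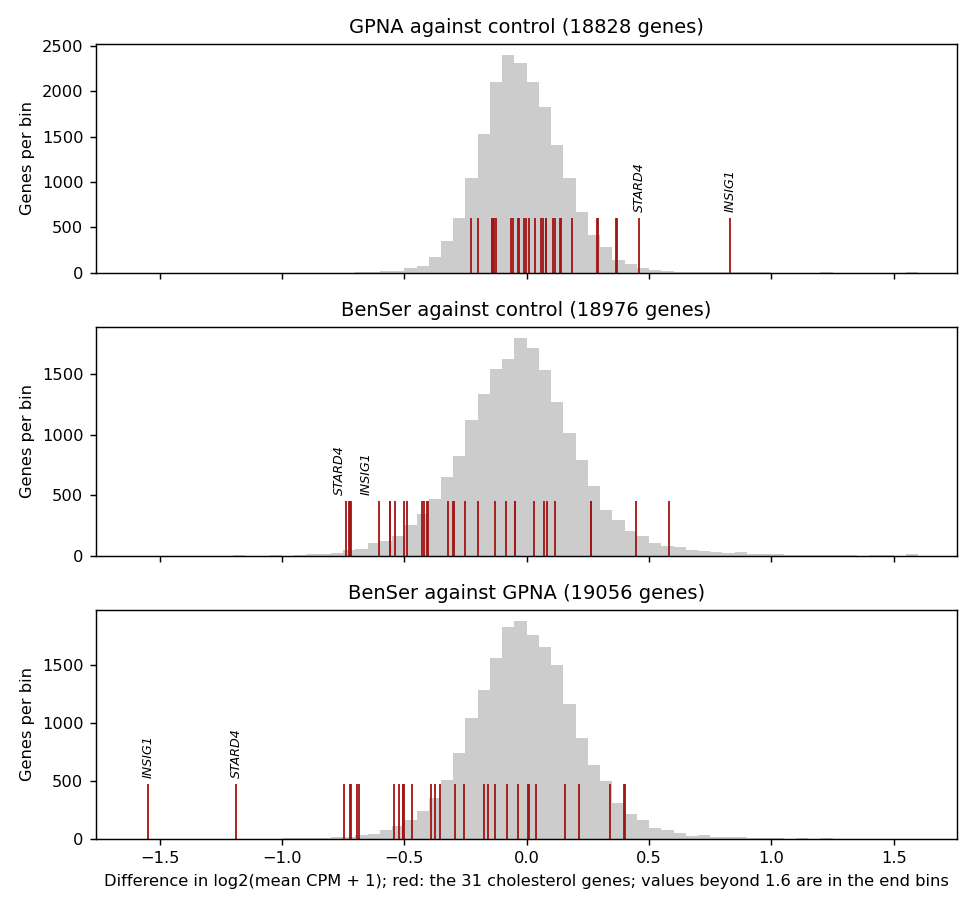
Distribution of the difference in log2(mean CPM + 1) over all genes tested (grey bars, genes per bin) with the 31 cholesterol genes as red lines, for GPNA against control, BenSer against control and BenSer against GPNA; values beyond the axis limits are in the end bins. INSIG1 lies at 0.83, -0.72 and -1.55, and most red lines lie left of 0 in both panels that involve BenSer.

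Columns that did not overlap were common among all genes. With BenSer both columns lay below both control columns for 20 of the 31 genes (37.5% of all genes tested) and above for 5 (28.5%). With GPNA they lay above for 12 (22.4%) and below for 5 (34.4%). The counting interval of the ratio to control lay below 1 for 19 genes with BenSer (25.8% of all genes tested) and above 1 for 5 (18.2%). With GPNA it lay below 1 for 4 (20.1%) and above 1 for 8 (9.78%). Between the agents, the BenSer columns lay below the GPNA columns for 22 genes (33.6%) and above them for 5 (31.7%), and the interval lay below 1 for 20 (20.7%) and above 1 for 5 (21.2%).

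Neighbouring lists of lipid genes were described by the same counts. Of all genes tested, 15.0% were at least 1.2-fold lower and 10.4% higher with BenSer. With GPNA these shares were 5.86% lower and 5.18% higher. Of 12 fatty acid genes that SREBP-1 is known to control, 7 were at least 1.2-fold lower with BenSer and 0 with GPNA, and 1 was higher with GPNA. FASN, the fatty acid synthase, averaged 28.5 CPM with BenSer against 53.1 CPM in control, which is -0.88 on the log2 scale. SCD, the stearoyl-CoA desaturase, averaged 144 CPM with GPNA against 96.2 CPM in control, which is 0.58 on the log2 scale. Against GPNA the lowest of this list with BenSer were SCD (-0.99), FASN (-0.89) and FADS2 (-0.67), and FADS2 shares exon sequence with FADS1 and FEN1. Of 6 genes of acetyl-CoA supply, 4 were at least 1.2-fold lower with BenSer and 1 was higher, ACSS2, the acetyl-CoA synthetase, which was also higher with GPNA (log2 differences 0.38 and 0.41). The lowest of that list with BenSer was the mitochondrial thiolase gene ACAT1, at -0.44.

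The other lists were counted in the same way, and the same shares of all genes tested apply. The isoprenoid and the lysosomal counts higher with BenSer (14.3% each) are near the 10.4% of all genes. The sterol sensing counts with BenSer (6.67% either way) lie under the shares of all genes. Of 14 genes of the isoprenoid and dolichol branch, 4 were at least 1.2-fold lower and 2 higher, with COQ2, a coenzyme Q synthesis enzyme, lowest at -0.69; with GPNA 1 was higher, SRD5A3 (0.29), a dolichol synthesis reductase. Of 15 partners in sterol sensing and degradation, 1 was higher and 1 lower with BenSer, and 1 was lower with GPNA. RNF145, a sterol-responsive ubiquitin ligase, was lower than control with GPNA (-0.30) and higher with BenSer than with GPNA (0.59), and TMEM97, a sterol-regulated membrane protein, was at -0.37 with BenSer. Of 10 LXR and oxysterol genes, 3 were higher and 0 lower with BenSer, and 2 higher and 0 lower with GPNA. The greatest of these differences were 0.47 for CYP7B1, an oxysterol hydroxylase, with BenSer and 0.40 for SMPDL3A with GPNA. Of 14 genes of lysosomal and intracellular sterol transport, 2 were higher with BenSer, led by OSBPL1A, an oxysterol-binding protein (0.51), and 0 passed 1.2-fold with GPNA (OSBPL1A 0.26). Of the esterification and lipoprotein receptor genes, 2 of 8 tested were higher and 2 lower with BenSer, with LRP8 lowest at -0.59, and 1 of 9 was lower with GPNA, CAV1, the caveolae protein (-0.32).

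**Figure D4:**
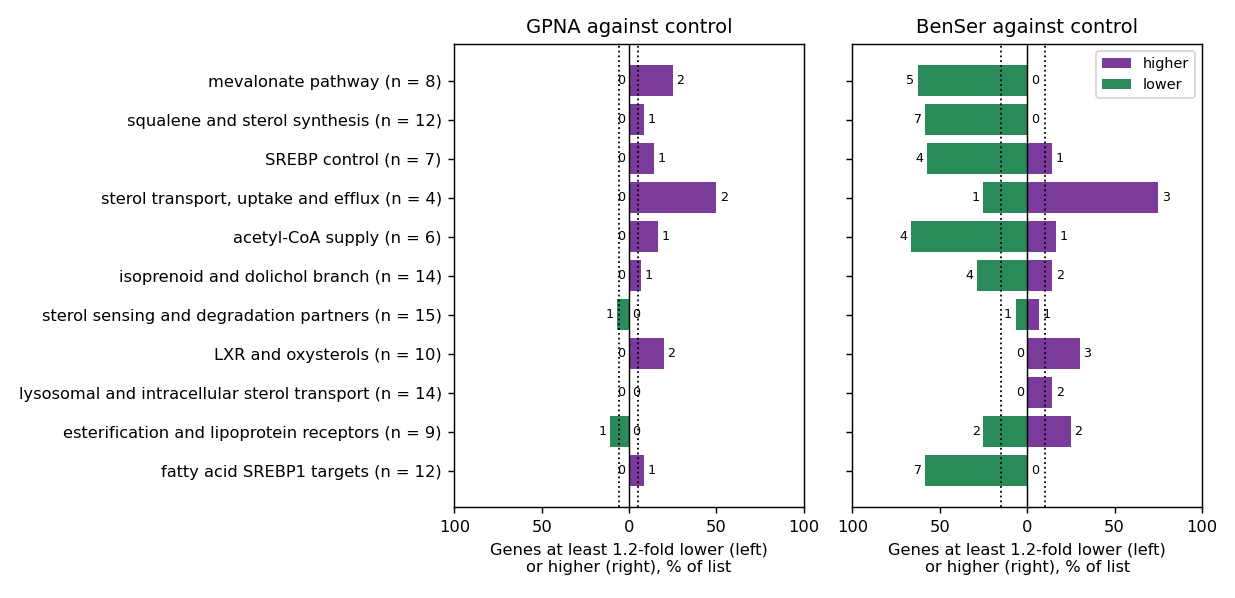
Share of each gene list at least 1.2-fold higher (purple, right) or lower (green, left) than control, in percent, with the number of genes beside each bar and the share of all genes tested as dotted lines; 8 of the 9 esterification and receptor genes were tested with BenSer. With BenSer the green bars of the sterol sensing (1 gene), LXR (0 genes) and lysosomal (0 genes) lists stay short of the dotted line at 15.0%. Those of all other lists reach past it, including mevalonate (5 genes), squalene and sterol (7 genes) and fatty acid (7 genes). The bar of acetyl-CoA supply (4 genes, 66.7%) reaches furthest.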

How the data were processed

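The labels give 2 libraries each of control, GPNA and BenSer PC-3 cells. Per the study's methods, the authors trimmed paired-end reads, aligned them by TopHat2 to the hg19 genome (GRCh37.p13) and deposited gene counts as CPM of the library total; the submitters' processing notes also name Bowtie2, HTSeq 0.6.2p2 and DESeq. Each table has 4 value columns per group, and the study's methods speak of 4 replicates. Columns 1 and 2 were taken by their numbers as the 2 labelled libraries, which the labels do not settle; 8 column entries (6 distinct) match no label and were not used. The authors' own fold changes and p-values in the tables were not used. Whole reads were recovered for 100% of values (tolerance 0.01 reads).

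Genes averaging 5 or more reads in at least 1 of the groups compared were set side by side as log2(mean CPM + 1), with limits of 1.5-fold and 1.2-fold. Nothing in the labels says that the columns of a group came from separate cultures. Same-numbered columns deviated together only weakly (r = 0.043 to 0.066 over 7924 genes with a mean of at least 10 CPM), which does not settle whether they are paired. Alternatives used limma 3.58.1, edgeR 4.0.16 and DESeq2 1.42.0 in R 4.3.3, tested on simulated data. The simulated counts varied by read sampling alone, with some well-covered genes changed 2-fold. They cannot show how the fits handle smaller changes or spread between cultures. Exon overlaps and GRCh37 positions came from GENCODE release 44.

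The 31 genes and the other lists were chosen with earlier results of these data known. Values per column are given for genes past 1.5-fold in any comparison and for 12 listed regulators, enzymes and transporters; other lists are given by counts, with at most 3 genes per direction past 1.5-fold on at least 50 merged reads, or otherwise the greatest difference.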

Additional observations from a re-analysis of the deposited data

How the results depend on the processing

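No called gene reversed direction under another pseudocount, filter or scaling, or with 1 column left out. Such settings could hardly reverse a 1.5-fold difference, so this says little. The direction of single genes was not compared in the limma, edgeR and DESeq2 fits. With a 2-fold limit the genes called were 0 higher with GPNA, 0 lower with BenSer and 2 lower with BenSer against GPNA. One count with BenSer turned on ABCG1: 1 gene was higher with a pseudocount of 0.1 or 0.5, TMM scaling or DESeq2 size factors. The median log2 difference with GPNA was 0.097 with TMM scaling and 0.095 with size factors. With BenSer it was -0.32 with a pseudocount of 0.1 and -0.26 with either scaling. Either scaling left 4 genes at least 1.5-fold lower with BenSer, from 5. Leaving out 1 column at a time gave medians of 0.019 to 0.057 with GPNA, -0.34 to -0.31 with BenSer and -0.40 to -0.30 between the agents. It gave 0 to 1 genes at least 1.5-fold higher with BenSer, 4 to 7 lower with BenSer and 7 to 9 lower between the agents. At 1.2-fold, an addition made after seeing the data, it gave 0 to 1 lower with GPNA and 2 to 4 higher with BenSer (2 without BenSer column 2); TMM scaling left 15 lower with BenSer. Without control column 1, MVK (-0.61) and FDPS (-0.64) passed the 1.5-fold limit with BenSer, and without GPNA column 2, ACAT2 (-0.64) and CYP51A1 (-0.60) passed it between the agents.

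Entering the columns as 2 samples per group compares these libraries, not the treatments. At an adjusted p under 0.05, with the share of all 19216 genes in parentheses, edgeR's quasi-likelihood test called 8 genes higher (7.63%) and 1 lower (8.83%) with GPNA, 6 higher (18.7%) and 19 lower (17.8%) with BenSer, and 4 higher (18.2%) and 19 lower (16.3%) between the agents. DESeq2 called 5 higher (2.9%) with GPNA, 3 higher (11.2%) and 14 lower (10.5%) with BenSer, and 4 higher (10.4%) and 18 lower (8.63%) between the agents. limma called 1 higher (1.19%) with GPNA, 3 higher (11.1%) and 17 lower (16.0%) with BenSer, and 3 higher (10.6%) and 18 lower (10.9%) between the agents. The 6 (edgeR), 3 (DESeq2) and 3 (limma) of 31 genes higher with BenSer are near the share of all genes.

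The labels do not say whether columns of the same number are paired. With the number as a replicate block, edgeR called 8 higher (7.59%) and 1 lower (8.84%) with GPNA, 6 higher (18.5%) and 19 lower (17.8%) with BenSer, and 4 higher (18.1%) and 19 lower (16.1%) between the agents. limma with the block called 0 higher with GPNA (0.0156%, from 1 without it), 4 higher (9.45%) and 15 lower (13.9%) with BenSer, and 3 higher (8.52%) and 17 lower (8.4%) between the agents. With 1 sample per group, depth limits the counting error only, and the spread between cultures is unknown.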
